A study of Mus musculus with 4 samples.

Results

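The 40 genes examined here act in messenger RNA decay, nearly all of them in the cytoplasm, and were taken by name from the 13772 genes in tables of single mouse muscle stem cells. By step, 14 act in deadenylation (10 Cnot genes, Pan2, Pan3, Parn and Pabpc1), 17 in decapping and 5' to 3' decay (Dcp1a, Dcp1b, Dcp2, Dcps, Edc3, Edc4, Ddx6, Patl1, 7 Lsm genes, Xrn1 and Xrn2) and 9 in nonsense-mediated decay (Upf1, Upf2, Upf3a, Upf3b, Smg1, Smg5, Smg6, Smg8 and Smg9). All 40 were found in the tables, and 38 had a mean of at least 5 CPM over the libraries, the level from which a gene counted as measured. CPM is the number of unique molecular identifiers (UMIs, each standing for 1 captured RNA molecule) of a gene per 1000000 UMIs of the cell, and all levels are means over cells. Pan2 had 3.81, 4.15, 5.34 and 5.37 CPM and Dcp1b 2.45, 3.04, 3.16 and 2.94 CPM in the aged soft, aged stiff, young soft and young stiff libraries, and were left out of the counts. Muscle stem cells of aged and young wild-type C57BL/6 mice were kept for 7 days on polydimethylsiloxane, a silicone elastomer cast soft (12 kPa) or stiff (29 kPa), in medium with 10% fetal bovine serum. The 4 groups were aged cells on stiff, aged cells on soft, young cells on stiff and young cells on soft substrate, with 1 library each. The ages of the mice and the number pooled in a library are not given in the sources used here.

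Most messenger RNAs are destroyed by a fixed order of steps. The CCR4-NOT complex and the PAN2-PAN3 complex shorten the poly(A) tail, which is covered by the poly(A)-binding protein PABPC1. The LSM1-7 ring and PATL1 then bind the shortened tail, DCP2 with its activators removes the cap, and the exonuclease XRN1 digests the body from the 5' end. Nonsense-mediated decay leads messages with a premature stop codon into the same enzymes: UPF1, joined to exon junctions through UPF2 and UPF3, is phosphorylated by the kinase SMG1 and recruits SMG5 and the endonuclease SMG6. In muscle stem cells, differentiation begins as Myog, the transcription factor myogenin, is turned on.

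The tables held 5913 cells, and 5910 passed the filters (500 genes or more, mitochondrial counts up to 20%): 1333 aged soft, 1738 aged stiff, 1360 young soft and 1479 young stiff. Median depth per cell was 33315 and 37081 UMIs in the aged soft and aged stiff libraries, and 35607 and 28611 UMIs in the young soft and young stiff libraries. Each library was split at a Myog level of 7 on the log2(CPM + 1) scale, with 142 cells lying within 0.5 of that cut. Cells at 7 or above made up 79.7% of the aged soft and 84.9% of the aged stiff library, against 61.3% of the young soft and 62.3% of the young stiff library. All 7 progenitor markers were found, with summed levels between 1316 and 1398 CPM, most of it Myod1. Pax7, the stem cell transcription factor, had 41.8 and 32.0 CPM in the aged soft and aged stiff libraries, against 72.7 and 66.2 CPM in the young soft and young stiff libraries. Myf5 and Vcam1 were likewise lower in both aged libraries. Myf5 had 63.3 and 56.0 CPM against 109 and 81.9 CPM, and Vcam1 10.4 and 8.08 CPM against 22.3 and 18.7 CPM. Itga7 was higher in both aged libraries, with 223 and 240 CPM against 193 and 206 CPM. In the same order, Myod1 had 923 and 904 CPM against 897 and 943 CPM. Sdc4 had 86.5 and 76.0 CPM against 85.6 and 80.7 CPM, and Chodl 0.37 and 0.47 CPM against 0.43 and 1.09 CPM. The 9 myocyte markers, all found, summed to 47139 and 53557 CPM in the aged soft and aged stiff libraries, against 27920.0 and 30632 CPM in the young soft and young stiff libraries. The summed CPM of the 4 fibro-adipogenic markers found lay between 1.70 and 3.19, and that of the 5 immune markers was 6.28 and 6.44 in the aged soft and aged stiff libraries, against 1.26 and 1.68 in the young soft and young stiff libraries. Of the 2 endothelial and 1 keratinocyte markers found, none reached 1 CPM, and no red cell marker was found. The 5 smooth muscle and pericyte markers summed to 50.2 and 37.8 CPM in the aged soft and aged stiff libraries, against 97.0 and 97.1 CPM in the young soft and young stiff libraries, nearly all of it Notch3 and Pdgfrb. The tenocyte marker Scx stood at 292 and 301 CPM in the aged soft and aged stiff libraries, against 139 and 162 CPM in the young soft and young stiff libraries, and Tnmd was at or near 0. Cells under 1% mitochondrial counts numbered 83 and 109 in the aged soft and aged stiff libraries, against 21 and 13 in the young soft and young stiff libraries. No cell barcode was shared between libraries except 1, found in young soft and aged stiff.

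**Figure D1:**
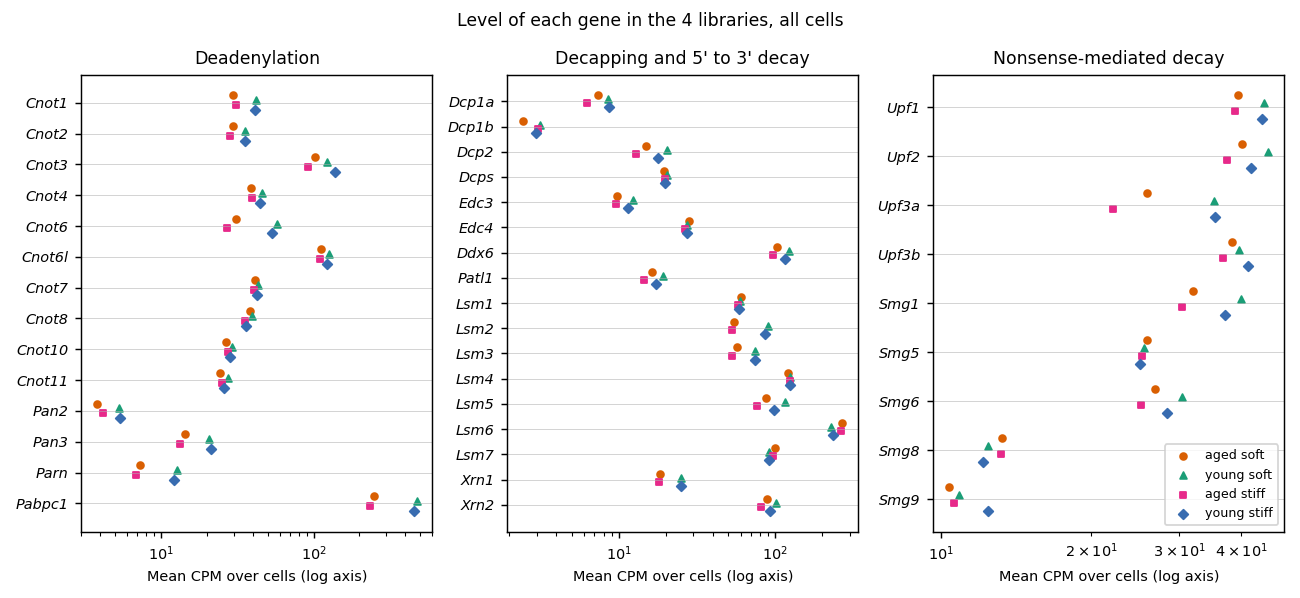
Mean CPM over all kept cells (log axis) of each of the 40 genes, in 3 panels by step, with 1 point per library (no replicates, so no error bars). Aged points lie left of the young ones for Pabpc1, Cnot6, Parn, Pan3, Lsm2, Xrn1 and Upf3a, among others. They lie right of them for Lsm6, Lsm7 and Smg8, while soft and stiff points of 1 age mostly coincide.

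Decay genes were compared between cells with Myog at 7 or above, here called Myog-high, and cells under 7, called Myog-low, within each library. Of the 38 measured, 25 were lower and 2 higher in the Myog-high cells at a Benjamini-Hochberg adjusted p under 0.05, by limma with library as block over 4 libraries. Among all 9545 genes tested 54% were lower and 25.5% higher, and the median log2 difference was -0.33 for the 38 genes and -0.28 for all genes, so the count by itself does not set the decay genes apart. With median-of-ratios scaling, which brings the median of all genes to 0.00, 17 of the 38 were lower and 9 higher (Cnot4, Cnot6l, Cnot7, Cnot11, Edc4, Ddx6, Lsm6, Smg8 and Upf1), and the share of higher genes among all those called was 50.1% in place of 32.1%. Of the 9545 genes, 3652 were lower and 3669 higher with that scaling. The test measures the spread over libraries that also differ in age and substrate. In the order aged soft, aged stiff, young soft and young stiff, which is kept throughout, the cycling markers summed to 71.9, 94.0, 279.5 and 289 CPM in Myog-high cells, against 812, 596, 1294 and 1278 CPM in Myog-low cells. The smooth muscle and pericyte markers summed to 12.0, 9.50, 15.6 and 14.9 CPM in Myog-high cells, against 199.8, 197, 226 and 233 CPM in Myog-low cells. Depth also moved with the classes: the median cell held 35842, 38922, 38733 and 31269 UMIs in Myog-high cells. In Myog-low cells it held 23301, 24341, 30910 and 23960 UMIs. The part of any of these in the differences between the classes was not tested.

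Among the deadenylation genes, 9 of 13 fell and 1 rose in Myog-high cells, against 7 lower and 4 higher with median-of-ratios scaling. Cnot6, a catalytic subunit of CCR4-NOT, had 20.7, 20.8, 38.3 and 34.4 CPM in the cells at 7 or above, against 71.6, 63.5, 87.1 and 85.9 CPM in the cells under 7. All libraries were lower in Myog-high cells, with a log2 difference of -1.44 ± 0.11 (SE, limma, Benjamini-Hochberg adjusted p = 7.54e-05). Its close paralogue Cnot6l had 121, 115, 138 and 131 CPM in the cells at 7 or above, against 75.6, 85.4, 109.9 and 106 CPM in the cells under 7, and rose by 0.43 ± 0.08 (SE, limma, Benjamini-Hochberg adjusted p = 0.00337). The pair thus went opposite ways in each of the 4 libraries. Pabpc1, which coats the tail, had 183, 182, 332 and 315 CPM in the cells at 7 or above, against 505, 525, 697 and 689.9 CPM in the cells under 7, a log2 difference of -1.29 ± 0.10 (SE, limma, Benjamini-Hochberg adjusted p = 7.89e-05). For Pabpc1, 22.4% of the 30-base words in the last 500 transcript bases also occur in other genes. How far this affects its level was not measured. Pan3, the regulatory subunit that anchors PAN2, had 10.7, 10.3, 15.3 and 13.8 CPM in the cells at 7 or above, against 28.6, 29.8, 29.0 and 33.4 CPM in the cells under 7. The Pan3 difference was -1.22 ± 0.10 (SE, limma, Benjamini-Hochberg adjusted p = 0.000123). Parn, a poly(A)-specific ribonuclease that also trims small RNAs, fell by 0.81 and the scaffold Cnot1 fell by 0.64 on the log2 scale. Cnot2, Cnot3, Cnot8 and Cnot10 also fell, with differences between -0.90 for Cnot3 and -0.34 for Cnot10, while Cnot4 and Cnot11 had -0.02 and -0.08 and did not pass. With median-of-ratios scaling Cnot8 and Cnot10 had -0.10 and -0.06 and lost the call, and Cnot4 and Cnot11 were 0.26 and 0.20 higher and passed. Cnot7, the other type of catalytic subunit, averaged 42.5 ± 1.10 CPM in Myog-high and 40.2 ± 2.87 CPM in Myog-low cells (SD, n = 4 libraries) and did not pass the test by limma (Benjamini-Hochberg adjusted p = 0.24). It was 0.36 higher and passed with median-of-ratios scaling.

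The stretches upstream of Cnot6 and Cnot6l are shown because these paralogues moved in opposite directions. Both windows cover the 250 bases before the first listed transcription start in RefSeq (GRCm38.p6), at chr11:49712723-49712972 (minus strand) for Cnot6 and chr5:96161991-96162240 (minus strand) for Cnot6l. Capitals mark motif matches on either strand. The motifs searched were E2F (TTTCCCGC, TTTCGCGC, TTTGCCGC or TTTGGCGC), the NF-Y box (CCAAT), ETS (CCGGAAG) and the E-box (CAGCTG or CACCTG), with no overlap among them other than the 1 named with Lsm5. Among 27025 windows of this length they occur in 1.91%, 34.5%, 7.05% and 27.4%, and among the 33 of the 40 genes with a listed window in 3, 12, 6 and 8.
Cnot6: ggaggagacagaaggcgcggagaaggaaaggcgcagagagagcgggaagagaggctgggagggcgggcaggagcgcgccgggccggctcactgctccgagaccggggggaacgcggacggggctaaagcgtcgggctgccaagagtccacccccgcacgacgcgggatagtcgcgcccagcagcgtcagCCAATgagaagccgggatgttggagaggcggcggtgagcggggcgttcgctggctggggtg
Cnot6l: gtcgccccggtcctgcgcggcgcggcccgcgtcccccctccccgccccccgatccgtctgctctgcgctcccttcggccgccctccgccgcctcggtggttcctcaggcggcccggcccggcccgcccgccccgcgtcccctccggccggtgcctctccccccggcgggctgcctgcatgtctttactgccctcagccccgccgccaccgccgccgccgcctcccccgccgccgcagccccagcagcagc
Cnot6 holds 1 CCAAT, and none of the 4 motifs is found in the Cnot6l window.

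Of the 16 decapping and 5' to 3' decay genes, 10 fell and 1 rose in Myog-high cells, against 8 lower and 3 higher with median-of-ratios scaling. Xrn1, the cytoplasmic 5' to 3' exonuclease, had 11.01, 12.1, 13.9 and 13.6 CPM in the cells at 7 or above, against 47.2, 51.5, 42.9 and 43.5 CPM in the cells under 7. Its log2 difference of -1.79 ± 0.10 was the lowest of the 38 (SE, limma, Benjamini-Hochberg adjusted p = 2.96e-05). Dcp2, the decapping enzyme, fell by 0.59, while Edc4, its scaffold, had a difference of 0.15 and did not pass the test by limma (Benjamini-Hochberg adjusted p = 0.143). Xrn2, the nuclear exonuclease, Dcps, Edc3 and Lsm4 fell, with differences between -0.67 for Xrn2 and -0.32 for Lsm4 (-0.03 and not called with median-of-ratios scaling), and Dcp1a, Ddx6 and Patl1 had -0.06, -0.05 and -0.19 and did not pass. The Lsm genes, whose products form a 7-membered ring, did not move as 1 group. Lsm2, Lsm3 and Lsm5 fell by 1.20, 0.95 and 1.06 on the log2 scale, and with median-of-ratios scaling by 0.91, 0.67 and 0.77. Lsm6 had 298, 284, 259 and 270.0 CPM in the cells at 7 or above, against 154, 149.9, 181 and 177 CPM in the cells under 7, and rose by 0.75 ± 0.10 (SE, limma, Benjamini-Hochberg adjusted p = 0.000685). Lsm1, the subunit that sets the cytoplasmic ring apart from the nuclear one, had a difference of -0.13 and did not pass. Lsm7 was 0.23 lower (limma, Benjamini-Hochberg adjusted p = 0.0123), but 0.05 higher with median-of-ratios scaling, and lost the call without the young soft (adjusted p = 0.0506) or the young stiff library (adjusted p = 0.0653). Shared 30-base words near the 3' end make up 43.6% for Lsm7, 40.2% for Lsm5, 30.7% for Lsm3 and 15.3% for Lsm6, against 0% for Lsm2.

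Of the 9 nonsense-mediated decay genes, 6 fell and none rose, led by the UPF3 pair, whereas with median-of-ratios scaling this pair alone was lower and Upf1 and Smg8 were higher. Upf3a had 18.0, 16.001, 21.9 and 22.7 CPM in the cells at 7 or above, against 56.6, 56.3, 56.6 and 56.5 CPM in the cells under 7, a log2 difference of -1.49 ± 0.10 (SE, limma, Benjamini-Hochberg adjusted p = 4.48e-05). Its paralogue Upf3b, the more potent activator of the pathway, fell by 0.74. Upf2, Smg6 and Smg9 fell by 0.31, 0.26 and 0.29, and Smg5 and Smg8 had -0.08 and 0.00 and did not pass. With median-of-ratios scaling Upf2, Smg6 and Smg9 had -0.03, 0.02 and -0.02 and lost the call, so that Smg6 changed sign. For Upf3a, 37.2% of the words near the 3' end are shared with other genes, against 0% for Upf3b. The core helicase Upf1 averaged 42.0 ± 2.95 CPM in Myog-high and 40.1 ± 4.85 CPM in Myog-low cells (SD, n = 4 libraries), and did not pass by limma (Benjamini-Hochberg adjusted p = 0.37), though it was 0.35 higher and passed with median-of-ratios scaling. Smg1 was 0.21 lower by limma (Benjamini-Hochberg adjusted p = 0.0408) and 0.07 higher with median-of-ratios scaling, and its call was lost without the aged soft, aged stiff or young stiff library (limma, adjusted p = 0.0554, 0.13 and 0.155).

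**Figure D2:**
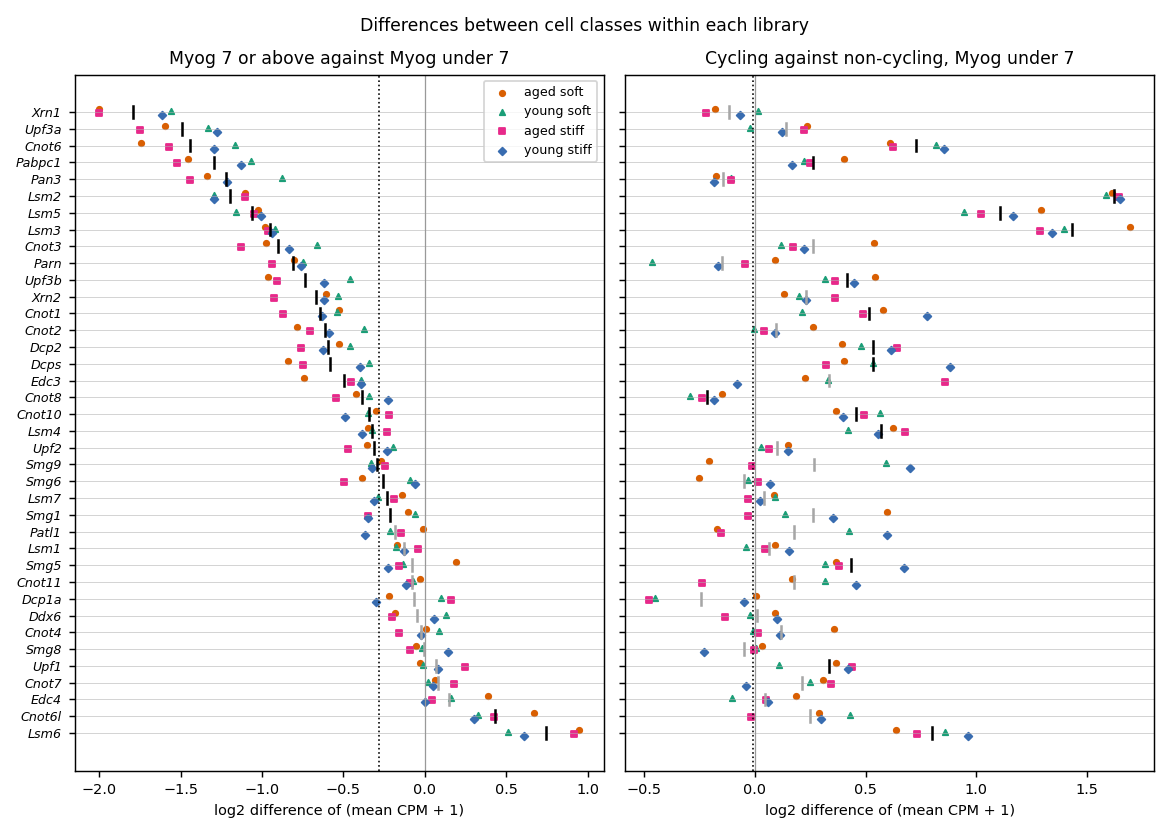
Log2 difference of (mean CPM + 1) between cell classes within each library (coloured points) for the 38 measured genes. The bar is the mean of the 4 libraries, black where the limma adjusted p is under 0.05 and grey otherwise, and the dotted line is the median of all genes. Left, Myog at 7 or above against under 7, with Xrn1 at -1.79 and Lsm6 at 0.75, where 3 of the genes called lower, Lsm7, Smg1 and Smg6, have the other sign with median-of-ratios scaling. Right, cycling against non-cycling cells among those under 7, with Lsm2 at 1.62 and Cnot8 at -0.22.

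Among the Myog-low cells, 5 of the 7 Lsm genes rose in cycling cells. Cells under the Myog cut were called cycling where a UMI of Mki67 or Top2a, markers of proliferation, was found, and 14 of the 38 decay genes rose and 1 fell in them by limma (Benjamini-Hochberg adjusted p under 0.05, library as block). Of all 9544 genes tested, 19.1% rose and 15.5% fell, and the median log2 difference was 0.24 for the 38 genes and -0.01 for all. By step, 4 of 13 deadenylation, 7 of 16 decapping and 3 of 9 nonsense-mediated decay genes rose. Depth moved with the classes: the median cell held 26597, 26040.0, 33596 and 27599 UMIs in cycling cells, against 21574, 23432, 26202 and 20558 UMIs in non-cycling cells, and its part in the differences was not tested. A marker UMI was found in 8.29%, 8.41%, 19.5% and 15.5% of Myog-high cells, and in 47.6%, 42.2%, 62.7% and 57.9% of Myog-low cells. With 5000 UMIs drawn from each cell, and 0 cells too shallow for it, these shares were 2.73%, 3.66%, 10.7% and 9.12% of Myog-high cells, and 33.9%, 30.8%, 49.0% and 46.8% of Myog-low cells.

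Lsm2 had 148, 162, 189.7 and 191 CPM in cycling cells, against 47.6, 51.3, 62.5 and 60.3 CPM in non-cycling cells, and rose by 1.62 ± 0.06 on the log2 scale (SE, limma, Benjamini-Hochberg adjusted p = 4.78e-05). Lsm3 had 149.7, 138, 137 and 142 CPM in cycling cells, against 45.5, 56.0, 51.5 and 55.4 CPM in non-cycling cells, a rise of 1.43 ± 0.09 (SE, limma, Benjamini-Hochberg adjusted p = 0.000319). Lsm5 had 213, 194, 213 and 188 CPM in cycling cells, against 86.5, 95.2, 110.4 and 83.3 CPM in non-cycling cells, a rise of 1.11 ± 0.08 (SE, limma, Benjamini-Hochberg adjusted p = 0.000601). For these genes, cycling cells had the higher level in every library. Lsm6 and Lsm4 rose by 0.80 and 0.57, whereas Lsm1 and Lsm7 had differences of 0.06 and 0.04 and did not pass by limma (Benjamini-Hochberg adjusted p = 0.488 and 0.623). Lsm2 to Lsm7 are shared between the cytoplasmic ring and the nuclear ring that binds U6 small nuclear RNA, and Lsm1 is found in the cytoplasmic ring only. Of the other genes, Cnot6 had 87.6, 79.9, 104 and 106 CPM in cycling cells, against 57.1, 51.6, 58.5 and 58.2 CPM in non-cycling cells and rose by 0.73 ± 0.08 (SE, limma, Benjamini-Hochberg adjusted p = 0.00213). Dcp2 and the scavenger decapping enzyme Dcps both rose by 0.53, Cnot1 by 0.52, Cnot10 by 0.46, Smg5 by 0.44, Upf3b by 0.42, Upf1 by 0.33 and Pabpc1 by 0.26. Cnot8 fell by 0.22, a call that was lost whichever library was left out (limma, adjusted p = 0.0792 to 0.181), as was that of Pabpc1 (0.0822 to 0.112). The Cnot1 call was lost without the aged soft or young stiff library (limma, adjusted p = 0.0594 and 0.0559), and that of Dcps without young soft (0.0655). That of Upf1 was lost without aged soft, aged stiff or young stiff (limma, adjusted p = 0.0839, 0.0833 and 0.106). Xrn1, Upf3a, Pan3 and Parn, also lower in Myog-high cells, had differences of -0.11, 0.14, -0.14 and -0.15. None of them passed (limma, lowest Benjamini-Hochberg adjusted p = 0.123). Cnot6, Pabpc1, Lsm2, Lsm3 and Lsm5, by contrast, were lower in Myog-high cells and rose in cycling cells.

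Upstream windows of Lsm2, Lsm3 and Lsm5 are shown because these genes fell together in Myog-high cells and rose together in cycling cells. They cover the 250 bases before the start in RefSeq (GRCm38.p6), at chr17:34981604-34981853 (plus strand) for the first of 2 listed starts of Lsm2, chr6:91515785-91516034 (plus strand) for Lsm3 and chr6:56704700-56704949 (minus strand) for Lsm5, with the same motifs in capitals.
Lsm2: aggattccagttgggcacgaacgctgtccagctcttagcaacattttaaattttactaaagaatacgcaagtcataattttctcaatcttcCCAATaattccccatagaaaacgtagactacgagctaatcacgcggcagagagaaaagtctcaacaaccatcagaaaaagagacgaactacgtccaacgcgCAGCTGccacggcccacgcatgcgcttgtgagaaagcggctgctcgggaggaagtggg
Lsm3: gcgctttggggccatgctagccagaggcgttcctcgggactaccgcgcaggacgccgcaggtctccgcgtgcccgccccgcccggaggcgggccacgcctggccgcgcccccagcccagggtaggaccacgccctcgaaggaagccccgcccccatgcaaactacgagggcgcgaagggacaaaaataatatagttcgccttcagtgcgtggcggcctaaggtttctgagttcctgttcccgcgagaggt
Lsm5: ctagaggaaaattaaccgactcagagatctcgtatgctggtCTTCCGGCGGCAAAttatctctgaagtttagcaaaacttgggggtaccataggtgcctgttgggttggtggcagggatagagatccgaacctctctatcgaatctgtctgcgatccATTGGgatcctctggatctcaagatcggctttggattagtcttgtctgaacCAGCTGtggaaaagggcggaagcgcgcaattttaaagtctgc
The windows do not share a motif across all 3 genes: Lsm2 holds an NF-Y box and an E-box, and Lsm5 an ETS, an E2F, an NF-Y box and an E-box, with the ETS and E2F matches overlapping by 1 base. None of the 4 motifs is found in the Lsm3 window.

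Aged cells were compared with young cells on each substrate, since the title of the series names RNA decay, stiffness and aged cells together. On a substrate each age had 1 library, so no test was made there and a gene was called where the log2 ratio of its mean CPM + 1 was at least 0.32 in size. Of the 38 genes, 12 were lower in aged cells on soft and 14 on stiff substrate, and none was higher on either. Of all 9546 genes measured, 32.7% were lower and 10.3% higher on soft, and 34.3% lower and 11.5% higher on stiff. The median log2 ratio was -0.19 and -0.20 for the 38 genes, and -0.15 and -0.16 for all genes. The 11 genes lower on both substrates were Cnot1, Cnot6, Pan3, Parn and Pabpc1 in deadenylation, Dcp2, Lsm2, Lsm3, Lsm5 and Xrn1 in decapping, and Upf3a in nonsense-mediated decay, where 28.5% of all genes were lower and 8.67% higher on both. The share of decay genes called lower was thus close to that of all genes, while none was called higher. With median-of-ratios scaling, 5 genes were lower on soft (Cnot6, Pan3, Parn, Pabpc1 and Lsm2) and 7 on stiff (the same 5 with Cnot3 and Upf3a), and Lsm6 was higher on both. Of all 9546 genes, that scaling put 1919 lower and 1826 higher on soft, and 2068 lower and 1943 higher on stiff. Among all genes called, 48.8% in place of 24.0% were higher on soft and 48.4% in place of 25.2% on stiff.

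Deadenylation genes included those with the largest age differences. Pabpc1 had 249 CPM in the aged soft and 234 CPM in the aged stiff library, against 474 CPM in the young soft and 456 CPM in the young stiff library. Its log2 ratios were -0.93 on soft and -0.96 on stiff, and its summed UMIs stood at a ratio per total of 0.473 (95% interval 0.462 to 0.485) on soft and 0.466 (95% interval 0.456 to 0.477) on stiff, an interval that covers counting error only. Cnot6 had 31.1 and 27.2 CPM in the aged soft and aged stiff libraries, against 57.2 and 53.8 CPM in the young soft and young stiff libraries, with log2 ratios of -0.86 and -0.96. In all cells, Cnot6l had 112 and 111 CPM in the aged soft and aged stiff libraries, against 127 and 122 CPM in the young soft and young stiff libraries, with ratios of -0.18 and -0.14 that did not reach the call. In Myog-low cells alone, its ratios were -0.53 on soft, past the call, and -0.31 on stiff, just under it. Parn had 7.32 and 6.89 CPM in the aged soft and aged stiff libraries, against 12.8 and 12.1 CPM in the young soft and young stiff libraries, a log2 ratio of -0.73 on both substrates. Both young libraries lay above both aged ones for each of these genes, and the share of all genes in that order was not counted. Of all 9546 genes, 6348 on soft and 6370 on stiff had a log2 ratio below 0. Pan3 had 14.4 and 13.3 CPM in the aged soft and aged stiff libraries, against 20.6 and 21.2 CPM in the young soft and young stiff libraries. The scaffold Cnot1 had 29.8 and 30.8 CPM in the aged soft and aged stiff libraries, against 41.8 and 41.3 CPM in the young soft and young stiff libraries, with ratios of -0.47 and -0.41. Cnot7, Cnot8, Cnot10 and Cnot11, which include the remaining catalytic subunits, had ratios between -0.17 and -0.03, and none was called. Cnot2, Cnot3 and Cnot4 had -0.26, -0.27 and -0.24 on soft and -0.33, -0.58 and -0.19 on stiff, where Cnot2 and Cnot3 were called.

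Among the decapping and 5' to 3' decay genes, Lsm2 had 54.2 and 53.0 CPM in the aged soft and aged stiff libraries, against 90.3 and 85.5 CPM in the young soft and young stiff libraries, with log2 ratios of -0.72 and -0.68. Lsm3 and Lsm5 were lower by smaller margins, with ratios of -0.37 and -0.48 for Lsm3 and -0.40 and -0.36 for Lsm5. Lsm6 had 269 and 264 CPM in the aged soft and aged stiff libraries, against 229 and 235 CPM in the young soft and young stiff libraries, with ratios of 0.23 and 0.17, under the call except with median-of-ratios scaling (0.40 and 0.34). The other ring genes, Lsm1, Lsm4 and Lsm7, had ratios between -0.03 and 0.12. Ring genes therefore differed among themselves, with Lsm2 lower and Lsm6 higher in both aged libraries than in both young ones. Xrn1 had 18.4 and 18.0 CPM in the aged soft and aged stiff libraries, against 25.1 and 24.9 CPM in the young soft and young stiff libraries, with ratios of -0.43 and -0.44. Dcp2 had 14.9 and 12.9 CPM in the aged soft and aged stiff libraries, against 20.5 and 17.9 CPM in the young soft and young stiff libraries, with ratios of -0.44 and -0.45. The decapping cofactors Edc4, Dcps and Patl1 had ratios between -0.25 and 0.04, and the helicase Ddx6 had -0.25 and -0.27. Edc3 had -0.33 and -0.23 and was called on soft, Dcp1a had -0.19 and -0.42 and was called on stiff, and Xrn2 had -0.18 and -0.20.

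Nonsense-mediated decay genes were called once on each substrate. Upf3a had 25.9 and 22.1 CPM in the aged soft and aged stiff libraries, against 35.3 and 35.5 CPM in the young soft and young stiff libraries, with log2 ratios of -0.44 and -0.66. Upf1 had 39.3 and 38.8 CPM in the aged soft and aged stiff libraries, against 44.4 and 43.9 CPM in the young soft and young stiff libraries, with ratios of -0.17 and -0.17 that lay at the median of all genes. Smg1 had 31.9 and 30.4 CPM in the aged soft and aged stiff libraries, against 39.96 and 37.0 CPM in the young soft and young stiff libraries, with ratios of -0.32 and -0.27, just under the call. The effectors Smg5, Smg6, Smg8 and Smg9 and the factors Upf2 and Upf3b had ratios between -0.21 and 0.11.

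The larger share of Myog-high cells in the aged libraries moved with these ratios, so each age comparison was repeated within the classes and at an equal mix. In Myog-high cells 9 decay genes were lower on soft and 8 on stiff and none higher, where 28% and 24.4% of all genes were lower and 8.56% and 8.46% higher. The 6 lower on both were Cnot6, Pan3, Parn, Pabpc1, Dcp2 and Ddx6, where 20.2% of all genes were lower and 6.12% higher on both. In Myog-low cells 6 were lower and 2 higher on soft, and 7 lower and 1 higher on stiff, where 19.8% and 17.6% of all genes were lower and 13% and 14.1% higher. Of these, 4 were lower on both (Parn, Pabpc1, Patl1 and Lsm2) and Dcps was higher, where 11.6% and 8.45% of all genes were. Parn and Pabpc1 were lower on both substrates in both classes, as were 6.87% of all genes. When the class means of the aged library were weighted by the class shares of the young library on the same substrate, 6 genes were lower on soft (Cnot1, Cnot6, Parn, Pabpc1, Dcp2 and Lsm2; 21% of all genes) and 5 on stiff (Cnot6, Parn, Pabpc1, Dcp1a and Lsm2; 17.8%). None was higher at equal mix, where 8.25% of all genes were on soft and 8.37% on stiff.

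Xrn1 and Upf3a were lower in aged cells as a whole but not in the Myog-low class. Among Myog-high cells, Xrn1 had 11.01 and 12.1 CPM in the aged soft and aged stiff libraries, against 13.9 and 13.6 CPM in the young soft and young stiff libraries. Among Myog-low cells it had 47.2 and 51.5 CPM in the aged soft and aged stiff libraries, against 42.9 and 43.5 CPM in the young soft and young stiff libraries, the aged libraries being the higher ones there. Its log2 age ratio was -0.31 on soft and -0.15 on stiff in Myog-high cells, and 0.13 and 0.24 in Myog-low cells, none of them called. At equal mix the ratio was -0.01 on soft and 0.11 on stiff. Among Myog-low cells, Upf3a had 56.6 and 56.3 CPM in the aged soft and aged stiff libraries, against 56.6 and 56.5 CPM in the young soft and young stiff libraries, with ratios of 0.00 and -0.01. Its ratios were -0.27 and -0.48 in Myog-high cells, the second of them called, and -0.10 and -0.18 at equal mix. Pan3, likewise, had ratios of -0.02 and -0.16 in Myog-low cells, and Lsm5 ratios of -0.19 and -0.09 at equal mix.

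Pabpc1, Parn, Cnot6 and Lsm2 kept lower values at equal mix. Among Myog-high cells, Pabpc1 had 183 and 182 CPM in the aged soft and aged stiff libraries, against 332 and 315 CPM in the young soft and young stiff libraries. Among Myog-low cells it had 505 and 525 CPM in the aged soft and aged stiff libraries, against 697 and 689.9 CPM in the young soft and young stiff libraries, so both aged libraries were lower in either class. Its log2 ratio at equal mix was -0.62 on soft and -0.55 on stiff. Those of Parn were -0.56 and -0.49, those of Cnot6 -0.49 and -0.53 and those of Lsm2 -0.50 and -0.39. The Cnot6 ratio was -0.86 and -0.70 in Myog-high cells, and -0.28 and -0.43 in Myog-low cells, of which the first was under the call. For Cnot6l the ratio was -0.19 on both substrates in Myog-high cells, and -0.53 and -0.31 in Myog-low cells, of which the first was called. At equal mix the Cnot6l ratio was -0.29 on soft and -0.23 on stiff, under the call. Among Myog-low cells, Dcps, which clears cap fragments, had 30.5 and 30.5 CPM in the aged soft and aged stiff libraries, against 23.5 and 23.5 CPM in the young soft and young stiff libraries, with a ratio of 0.36 on both substrates. Upf3b, at 0.40 on soft and 0.22 on stiff, was the other gene called higher there, on soft.

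Cycling moved with age within the Myog-low class, where the 5 cycling markers summed to 812 and 596 CPM in the aged soft and aged stiff libraries, against 1294 and 1278 CPM in the young soft and young stiff libraries. The class was therefore split further, a step chosen after seeing the data, into 129, 111, 330 and 323 cycling cells and 142, 152, 196 and 235 non-cycling cells. Among cycling cells Cnot6l, Pabpc1, Patl1 and Smg9 were lower and none higher on both substrates (9.85% and 6.84% of all genes). Among non-cycling cells Parn and Pabpc1 were lower and Dcps higher on both (9.32% and 8.85%). Pabpc1, the gene common to both, had log2 ratios of -0.35 and -0.32 in cycling and -0.53 and -0.41 in non-cycling cells. Lsm2, which rose with cycling, had -0.36 and -0.24 in cycling and -0.38 and -0.23 in non-cycling cells, against -0.57 and -0.47 in the undivided class. Cnot6 had -0.25 and -0.40 in cycling and -0.03 and -0.17 in non-cycling cells.

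**Figure D3:**
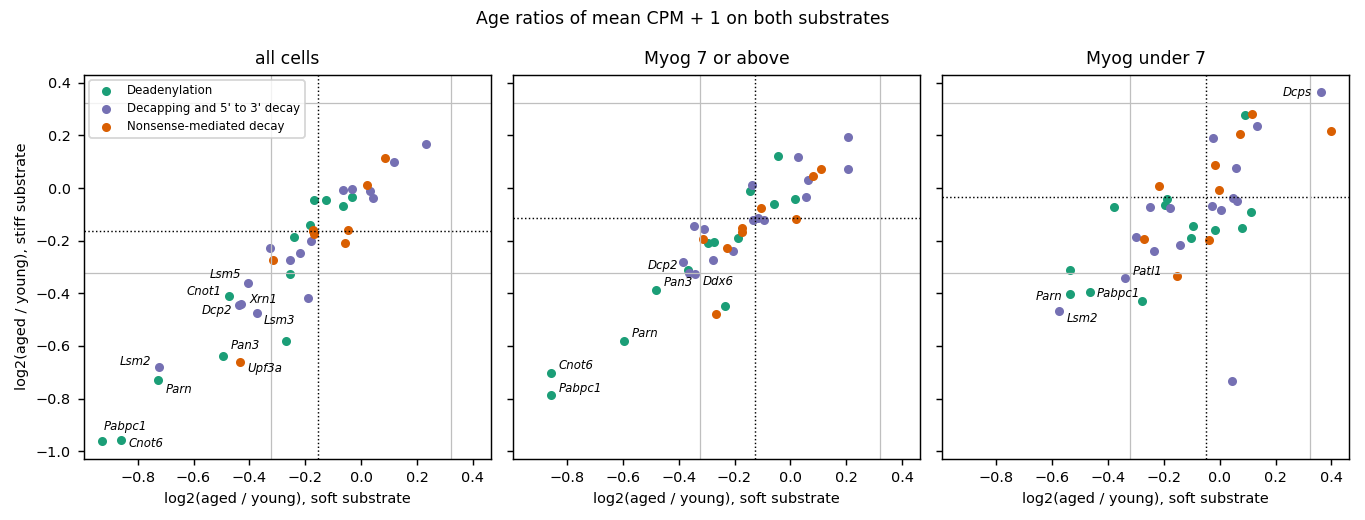
Log2 ratio of mean CPM + 1, aged over young, on soft (x axis) and stiff substrate (y axis) for the 38 measured genes, in all cells, Myog-high cells and Myog-low cells. Each point is a gene coloured by step, grey lines mark the size from which a gene was called (0.32), dotted lines the median of all genes, and named genes are called on both substrates in the same direction. In all cells Pabpc1 sits at -0.93 and -0.96 and Cnot6 at -0.86 and -0.96. Parn and Pabpc1 are named in all 3 panels.

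Finer steps of Myog showed where the ages diverged. In cells with Myog between 5 and 7, Pabpc1 had 489 and 507 CPM in the aged soft and aged stiff libraries, against 686 and 668 CPM in the young soft and young stiff libraries. Between 7 and 9 it had 184 and 139 CPM in the aged soft and aged stiff libraries, against 499 and 378 CPM in the young soft and young stiff libraries, and between 9 and 11 123 and 127 CPM against 215 and 216 CPM. At 11 and above it had 254 and 285 CPM against 394 and 389 CPM, again aged before young. The lowest level lay between 9 and 11 in all 4 libraries, and both aged libraries were below both young ones in each of these bins. Cnot6 between 7 and 9 had 22.4 and 17.5 CPM in the aged soft and aged stiff libraries, against 63.5 and 58.4 CPM in the young soft and young stiff libraries. Xrn1 had 52.3 and 51.0 CPM against 39.7 and 37.1 CPM between 5 and 7, and 9.57 and 15.5 CPM against 23.1 and 21.5 CPM between 7 and 9, aged before young, so the order of the ages turned round at the cut. Cnot6l had 76.5 and 75.9 CPM in the aged soft and aged stiff libraries between 7 and 9, against 137 and 128 CPM in the young soft and young stiff libraries, but 155 and 156 CPM against 162 and 151 CPM at 11 and above.

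The same bin also differed in muscle genes. Between 7 and 9, the 8 myocyte markers other than Myog summed to 53831 and 63201 CPM in the aged soft and aged stiff libraries, against 20105 and 34358 CPM in the young soft and young stiff libraries, and muscle creatine kinase, Ckm, stood at 117 and 203 CPM against 29.0 and 42.6 CPM. The bin held 120 and 220 aged cells and 86 and 95 young cells. In the whole Myog-high class the 9 myocyte markers summed to 58342 and 62283 CPM in the aged soft and aged stiff libraries, against 45048 and 48893 CPM in the young soft and young stiff libraries. The part of this difference in the age ratios of decay genes within the Myog-high class was not tested.

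**Figure D4:**
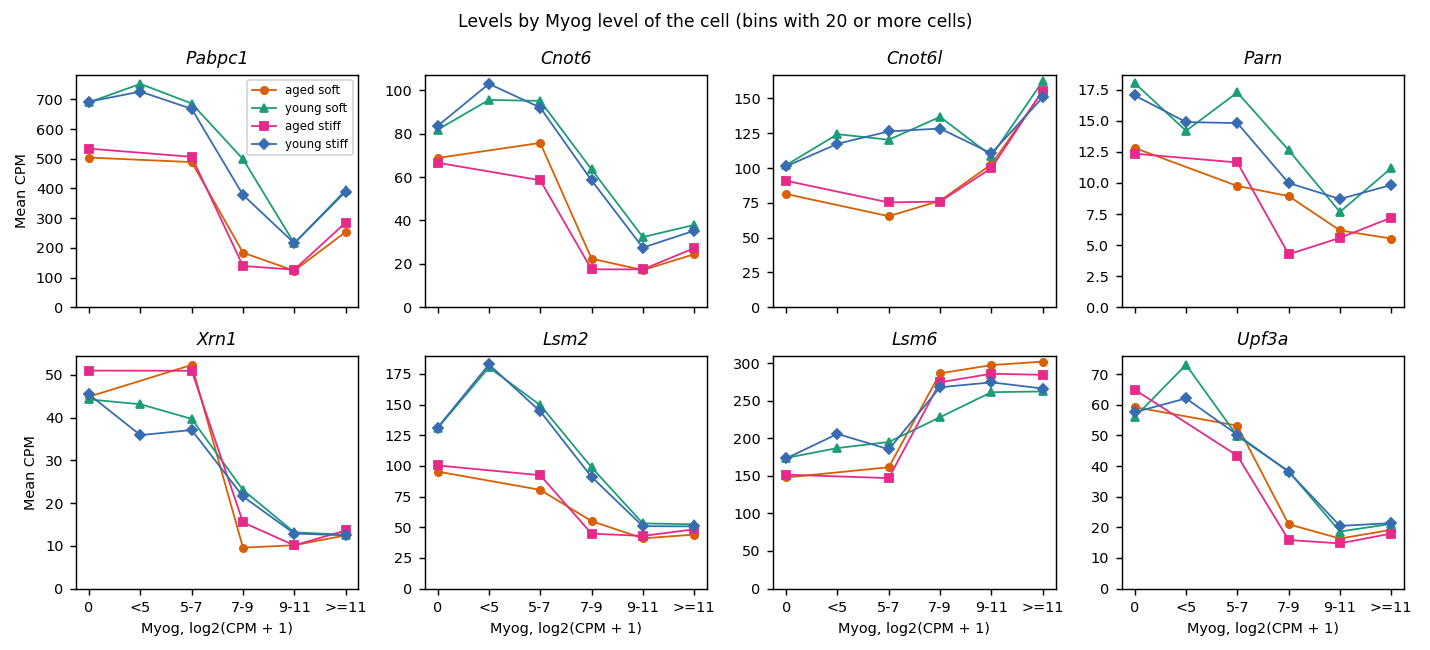
Mean CPM of 8 decay genes (y axis, from 0) by the Myog level of the cell, log2(CPM + 1), in 6 bins (x axis), with 1 line per library and bins of under 20 cells left out. In the 7 to 9 bin Pabpc1, Cnot6, Cnot6l, Xrn1 and Upf3a are lower in both aged libraries than in both young ones, with Pabpc1 at 184 and 139 CPM in aged soft and aged stiff and 499 and 378 CPM in young soft and young stiff. Lsm6 is higher in Myog-high bins of every library.

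Stiffness went with little difference in the decay genes. Of the 38, none was called in aged or in young cells, where 0.629% and 0.461% of all genes were higher and 3.95% and 1.49% lower on stiff substrate. The median log2 ratio of stiff over soft was -0.06 in aged and -0.03 in young cells, against -0.04 and -0.03 for all genes. In aged cells the ratios ran from -0.22 for Upf3a to 0.05 for Cnot1, and in young cells from -0.22 for Lsm5 to 0.18 for Smg9. The UMI ratio of Upf3a on stiff over soft was 0.85 (95% interval 0.783 to 0.924) in aged and 0.978 (95% interval 0.911 to 1.05) in young cells. Within Myog-low aged cells Cnot1 was higher, with 50.7 CPM on stiff and 39.8 CPM on soft (log2 ratio 0.34; 7.67% of all genes higher), and Dcp1a was lower, with 5.59 CPM on stiff and 8.43 CPM on soft (ratio -0.52; 6.02% lower). The UMI ratio was 1.22 for Cnot1 (95% interval 1.04 to 1.44) and 0.784 for Dcp1a (95% interval 0.51 to 1.20), and neither call was made when UMIs were summed over cells. The Myog-low class held 263 aged stiff and 271 aged soft cells. None of the 38 was called in Myog-high aged cells (0.943% of all genes higher and 1.47% lower), in Myog-high young cells (0.964% and 2.91%) or in Myog-low young cells (1.62% and 3.93%). These calls were not compared between ages by a test.

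Partners of these enzymes were listed beside them. Of 16 deadenylation partners, 7 were lower in aged cells on soft and 6 on stiff, and 1 higher on stiff, beside the 32.7% and 34.3% of all genes lower on these substrates. Zfp36l2, which recruits CCR4-NOT to AU-rich messages, had 41.8 and 29.8 CPM in the aged soft and aged stiff libraries, against 80.8 and 71.4 CPM in the young soft and young stiff libraries, with ratios of -0.70 and -0.76 in Myog-high cells and -0.11 and -0.12 in Myog-low cells. Ago1 of the microRNA pathway had log2 ratios of -0.58 and -0.78, Cnot9 -0.51 and -0.49, and Tnrc6a -0.39 and -0.58. Of 12 decapping partners, 2 were lower on soft and 1 on stiff. Lsm8, which takes the place of Lsm1 in the nuclear ring, had 60.1 and 53.5 CPM in the aged soft and aged stiff libraries, against 106 and 91.1 CPM in the young soft and young stiff libraries. Its ratios were -0.74 and -0.60 in Myog-low cells, and -0.26 and -0.18, under the call, in Myog-high cells. Lsm14b, Dxo, Gigyf1 and Pnrc2 had ratios between -0.37 and -0.18 on either substrate. Of 4 other deadenylases measured, Noct and Toe1 were lower on both substrates, by log2 ratios of -0.61 and -0.56 for Noct and -0.54 and -0.49 for Toe1, and Pde12 had -0.29 and -0.24.

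Of 13 exon junction, termination and further decay factors, 7 were lower in aged cells on each substrate and none was higher, beside the 32.7% and 34.3% of all genes lower. Ruvbl2, a helicase of the SMG1 complex, had 27.4 and 24.99 CPM in the aged soft and aged stiff libraries, against 39.7 and 36.3 CPM in the young soft and young stiff libraries, and its partner Ruvbl1 ratios of -0.38 and -0.47. Nbas, Magoh of the exon junction complex and the release factor Gspt1 had ratios of -0.49, -0.48 and -0.41 on soft and -0.22, -0.37 and -0.51 on stiff. By limma, 11 of the 13 fell in Myog-high cells, where 54% of all genes did, and 10 of 13 rose in cycling cells, where 19.1% did, with none the other way. With median-of-ratios scaling 7 were lower and 2 higher in Myog-high cells, beside 3652 lower and 3669 higher of all 9545 genes. Of the 8 known targets of nonsense-mediated decay that were measured, 5 rose in Myog-high cells and none fell by limma, where 25.5% of all genes rose. With median-of-ratios scaling all 8 were higher. By age, 1 of the 8 was lower in aged cells on soft and none higher, and 3 were lower and 1 higher on stiff. Of all genes, 10.3% were higher on soft and 11.5% on stiff. In aged cells, Gadd45b, a stress-response gene, had 49.8 and 42.0 CPM in the aged soft and aged stiff libraries, against 86.9 and 87.4 CPM in the young soft and young stiff libraries, and was lower in both Myog classes. Tbl2 had ratios of -0.32 and -0.54, and Gadd45a 0.28 and 0.37. Within the classes, the Gadd45a ratio was -0.02 on both substrates in Myog-high cells, and 0.07 and 0.10 in Myog-low cells. These targets are also set by transcription, and their stability was not measured.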

How the data were processed

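Single-cell RNA was sequenced from 4 libraries, 1 per group, with a 10x Chromium 3' kit (version 3), per the labels' protocols. The submitters' processing notes list Cell Ranger 6.1.2 together with Partek, while the genome build and annotation are not given in the sources used here. The deposited tables hold log2 values, log2(CPM + 1), of single cells, as judged from the values. They were turned back into CPM and then into whole UMIs. The most frequent value above 0 in each cell was taken as 1 UMI and refined by least squares. Of the authors' values above 0, 99.9534% to 99.9561% came out whole within 0.05. The filters on cells were 500 genes or more and mitochondrial counts up to 20%, and no doublet caller was run, so doublets were not removed. Levels are means of CPM over cells, and ratios are log2 of (mean CPM + 1). Genes with a mean of at least 5 CPM over the libraries were measured.

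With 1 library per group, age and stiffness were not tested, and no fit over both substrates or both ages was made: ratios are given with the exact conditional binomial 95% interval of summed UMIs, which covers counting error only. Over the measured decay genes in all cells, the bound farther from the ratio was 6.80% away in the median case and 16.03% at most. Differences between cell classes were tested by limma 3.58.1 in R 4.3.3 across all measured genes, with library as block, 3 residual degrees of freedom before shrinkage, and Benjamini-Hochberg adjustment. These p-values measure the spread over 4 libraries that differ in age and substrate. Whether the libraries came from separate mice or cultures is not told, and culture and group cannot be told apart. The limma fit was tested on simulated data. Python 3.11.15 with numpy 2.4.6, scipy 1.17.1, pandas 2.3.3 and matplotlib 3.10.9 was used. The decay genes and all lists were chosen with earlier results of these data known. Genes given with values are those called in both age comparisons in 1 direction or in a stiffness comparison, the 4 highest and 4 lowest called between Myog classes, and Cnot1, Cnot7, Dcp2, Xrn1, Upf1 and Smg1; others are given by count or range or where an opposite pattern was seen. Shared words of 30 bases were counted in the last 500 bases of transcripts, since 3' reads from such stretches cannot be assigned to 1 gene. Alternatives were another pseudocount, floor, scaling, fold, Myog cut and cell filter, summed UMIs, fits without a library or without the block, and, added after seeing the data, cycling and non-cycling cells apart.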

Additional observations from a re-analysis of the deposited data

Results flagged for a closer look

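For 4 decay genes, the aged over young log2 ratio was above 0 on both substrates in 1 Myog class and below 0 on both in the other, and the difference between classes was not tested. For Lsm6 the ratio was 0.21 and 0.07 on soft and stiff in Myog-high cells, and -0.24 and -0.24 in Myog-low cells, a difference of 0.44 and 0.31. Within the Myog-low class the Lsm6 ratio was -0.20 and -0.19 in cycling cells and 0.02 and 0.04 in non-cycling cells. For Xrn1 the difference (Myog-high minus Myog-low) was -0.45 on soft and -0.39 on stiff. For Upf3b, the ratio was -0.11 and -0.07 in Myog-high cells and 0.40 and 0.22 in Myog-low cells, a difference of -0.51 and -0.29. For Smg6, the ratio was -0.23 on both in Myog-high cells and 0.07 and 0.21 in Myog-low cells, a difference of -0.30 and -0.44.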

How the results depend on the processing

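The counts of decay genes depended on scaling and on the fold that was called. With median-of-ratios scaling, the age comparison gave 1 higher and 5 lower on soft and 1 higher and 7 lower on stiff. Among all 9546 genes the counts were 1826 higher and 1919 lower on soft, and 1943 higher and 2068 lower on stiff. In Myog-high cells 9 decay genes were higher with that scaling, beside 3669 of all 9545 genes tested. Calling at 1.5 times left 4 lower on soft and 6 on stiff. Over all alternatives, the number lower in aged cells ran from 4 to 15 on soft and from 6 to 14 on stiff, and the number lower in Myog-high cells from 17 to 27. No decay gene was called by stiffness in all cells under any alternative run. Median-of-ratios scaling turned Lsm7 to 0.055, Smg1 to 0.067 and Smg6 to 0.02 between Myog classes, with none of them called, and Cnot8, Cnot10, Lsm4, Upf2 and Smg9 also lost their calls. It moved the share of higher genes among all called by stiffness to 30.6% in place of 13.7% in aged cells, and to 42.2% in place of 23.7% in young cells. The count lower in cycling cells was 0 without the filter on low values, 0 without the replicate block, 0 to 0 when each library was left out in turn, and 2 where at least 2 UMIs of Mki67 and Top2a were asked for. Without the replicate block, which is the library here, 2 were higher and 24 lower in Myog-high cells, and 10 were higher in cycling cells. Age was not fitted with substrate as a pair, nor stiffness with age, which would leave 1 residual degree of freedom. Of 114 alternative counts of decay genes 100 stayed within 1.5 times, and the cause of the others was not tested. The number of cells limits the values within Myog-low cells, of which there were 263 aged stiff and 271 aged soft, with 111 and 129 of them cycling.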
